A study of Bos taurus with 3 samples.

Results

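The 10 genes described here encode transcription factors of the AP-1 group and their immediate-early companion EGR1: *FOS*, *FOSB*, *FOSL1*, *FOSL2*, *JUN*, *JUNB*, *JUND*, *ATF3*, *MAFF* and *EGR1*. They were named as a family, with earlier results of these data known, out of 19533 named genes in the count matrix of rumen epithelial cells. All 10 were detected, with 514 unique molecular identifiers (UMIs, each a counted transcript molecule) for *FOSL1*, 2280 for *FOSL2*, 8874 for *MAFF* and between 38667 and 541774 for the others, and *JUN* had the most. All 10 passed the filter on low counts, which 11317 genes passed.

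AP-1 is a dimer of basic leucine zipper proteins. FOS-type proteins (FOS, FOSB, FOSL1, FOSL2) bind DNA with a JUN-type partner (JUN, JUNB, JUND), whereas JUN-type proteins can also pair with each other. ATF3 is a related stress-induced factor that pairs with JUN proteins, MAFF is a small MAF protein that lacks a transactivation domain, and EGR1 is a zinc finger factor that serum, growth factors and injury induce through the same kinases. Most of these genes are switched on within minutes of a stimulus without new protein synthesis. *JUND*, *FOSL1* and *FOSL2* are the usual exceptions: JUND is broadly present in unstimulated cells, and FOSL1 and FOSL2 accumulate later and last longer. In stratified epithelia AP-1 factors act on proliferation, differentiation genes and the response to wounding. Warm enzymatic dissociation of tissue is also known to induce many of these genes.

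The data came from the ventral rumen sac of 3 adult lactating Holstein dairy cows, with 1 droplet library (3′ end counting) per cow and a single condition. In all cows the muscle was stripped, and the tissue was treated with EDTA, then trypsin, then a mixture of collagenases, dispase, hyaluronidase and DNase I in warm baths. That treatment was common to every cell, no undissociated tissue was measured, and transcripts made during it cannot be told apart from those present in the animal. The deposited cells were those the study kept as epithelial.

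The 3 libraries held 3369, 7401 and 9958 cells, with median depths of 9747 to 12051 UMIs per cell and median mitochondrial shares of 10.8% to 17.2%. Cells were grouped into 6 states from 17 clusters by *DLK2* (a Notch-ligand-like membrane protein), *PDK4* (a kinase that inhibits pyruvate dehydrogenase), *TM4SF1* (a cell-surface four-pass membrane protein), *GJA1* (a connexin of gap junctions) and the cycling genes *MKI67* and *TOP2A*. A cluster was high for a gene at 1.5 times the mean over clusters. The nearest clusters on either side of that line stood at 1.71 and 1.48 UMIs per 10000 for *TM4SF1*, at 2.28 and 1.83 for *PDK4* and at 2.34 and 0.818 for *GJA1*. The DLK2-high PDK4-high state held 5303 cells, DLK2-high PDK4-low 1995, TM4SF1-high 2486, GJA1-high 2183, cycling 1464 and marker-low 7297. One of the 2 TM4SF1-high clusters, with 1952 of the 2486 cells, also held *PDK4*, at 3.40 UMIs per 10000. The DLK2-high PDK4-high clusters held 6.23, 3.22 and 2.28. By state, the mean *PDK4* level was 2.84 in TM4SF1-high, 4.27 in DLK2-high PDK4-high and 0.650 in marker-low cells. TM4SF1-high and marker-low cells thus also differed in *PDK4*. *KRT15* and the 7 other keratinocyte markers were present in all states, with a summed level between 118 and 175 UMIs per 10000. Markers of other cell types were scarce, but some were higher where the 10 genes were high. The 8 immune markers, *MS4A1* among them at 0 and *CD68* the most abundant, summed to between 0.0770 and 0.101 UMIs per 10000 over the cows in DLK2-high PDK4-high cells and between 0.0687 and 0.0890 in TM4SF1-high cells, above the 0.0257 to 0.0460 of marker-low cells. The 5 smooth muscle markers summed to 0.00868 to 0.0590 in DLK2-high PDK4-high and 0.00339 to 0.00954 in marker-low cells, which overlap, and the fibroblast markers (5 of 6 measured) to 0.00285 to 0.00521 and 0.000341 to 0.00150. The 5 endothelial markers had their highest mean, 0.0365, in GJA1-high cells. The part of these markers in the results was not tested. The clusters were drawn from these same cells with the 10 genes and other immediate-early genes kept out, but genes that vary with them stayed in, so p-values between states describe the spread over cows in states that share this origin.

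Levels differed several-fold between the cows. Over all cells, *FOS* stood at 5.81, 5.01 and 1.25 UMIs per 10000 in cows 1, 2 and 3. *ATF3* stood at 3.57, 5.18 and 0.296, a 17.5-fold range. *EGR1* stood at 3.80, 8.02 and 0.672, an 11.9-fold range. Cow 3 was the lowest of the 3 for every one of the 10 genes except *FOSL2*, which was at 0.149, 0.0825 and 0.0882 and thus lowest in cow 2. *FOSL2* also had the narrowest range, 1.80-fold, against 4.11-fold for *JUND* and 4.62-fold for *JUN*. With 1 library per cow, animal, day and handling cannot be told apart. The state comparisons below were therefore made within cows.

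Within each cow, 8 of the 10 genes shared 1 pattern: the DLK2-high PDK4-high and TM4SF1-high states were the highest pair in all 3 cows, and DLK2-high PDK4-low cells lay between them and the GJA1-high, cycling and marker-low cells, with 2 exceptions. *FOSB* in cow 2 was higher in cycling cells (2.15 UMIs per 10000) than in DLK2-high PDK4-low cells (2.06), and *ATF3* in cow 3 was higher in GJA1-high cells (0.215) than in DLK2-high PDK4-low cells (0.203). *FOSL1* never showed that pair on top, and *FOSL2* showed it in 1 cow. Means below are over 3 cows with their SD, on levels without the scaling used in the tests further down.

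**Figure D1:**
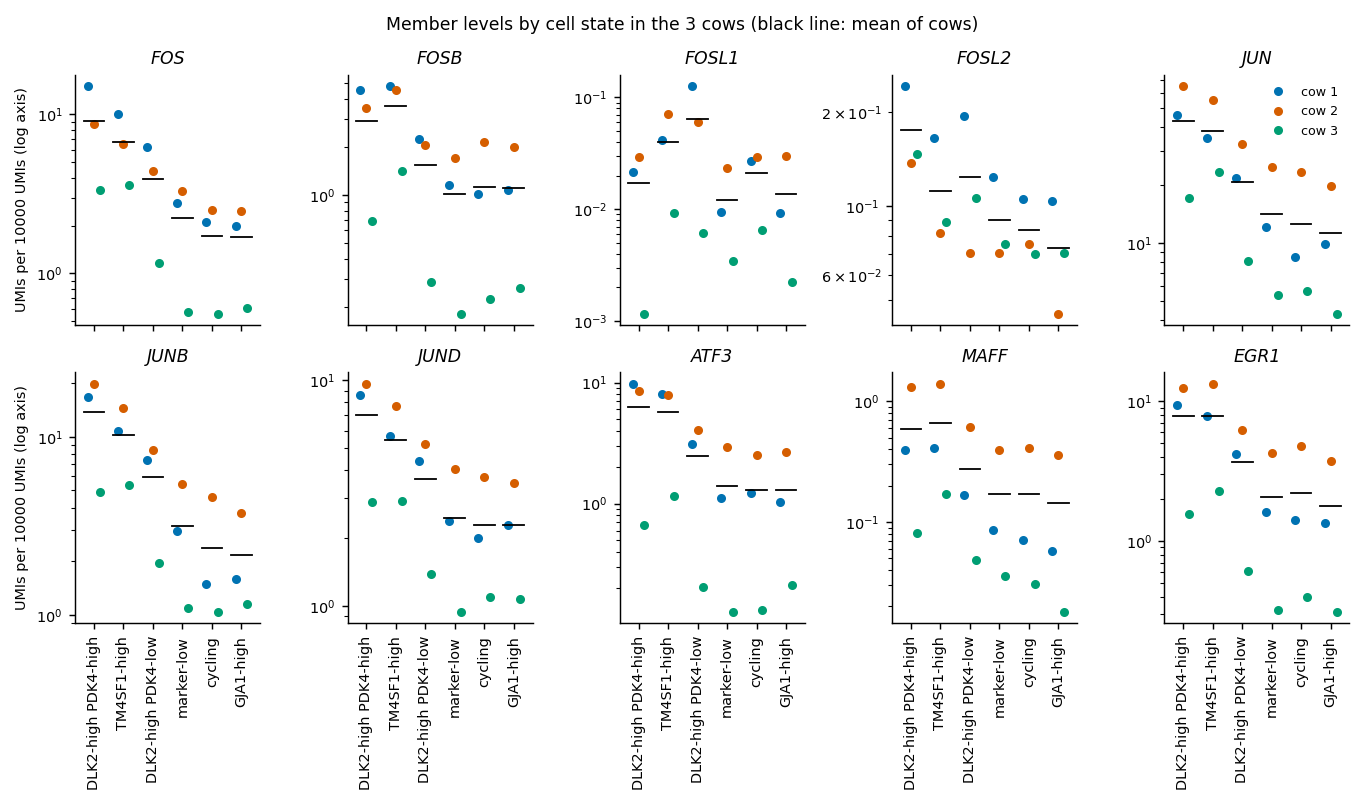
Level of each gene (UMIs per 10000 UMIs of the summed cells, log axis) in the 6 cell states; each point is 1 cow, coloured by cow, and the black line is the mean of 3 cows. In 8 panels both DLK2-high PDK4-high and TM4SF1-high cells lie above the other states in every cow, whereas the mean of *FOSL1* is highest in DLK2-high PDK4-low cells and the means of *FOSL2* are highest in the 2 DLK2-high states.

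Among the FOS-type genes, *FOS* was the most abundant. It stood at 15.1, 8.69 and 3.35 UMIs per 10000 in DLK2-high PDK4-high cells of cows 1, 2 and 3, and at 10.1, 6.51 and 3.58 in TM4SF1-high cells. In GJA1-high cells it stood at 1.99, 2.49 and 0.602, and in marker-low cells at 2.78, 3.30 and 0.572. Every cow's value in both high states was above all 3 values of the marker-low state. The order of the means was 9.04 ± 5.88 (DLK2-high PDK4-high), 6.72 ± 3.26 (TM4SF1-high), 3.95 ± 2.58 (DLK2-high PDK4-low), 2.22 ± 1.45 (marker-low), 1.72 ± 1.03 (cycling) and 1.69 ± 0.976 (GJA1-high). The first neighbours kept that order in 2 of 3 cows, as did the last.

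*FOSB*, the second FOS-type gene by level, was ordered differently at the top. It reached 4.82, 4.56 and 1.40 UMIs per 10000 in TM4SF1-high cells and 4.53, 3.50 and 0.683 in DLK2-high PDK4-high cells, so that TM4SF1-high cells were higher in all 3 cows. Marker-low cells held 1.16, 1.71 and 0.180. *MAFF* had the same top order, at 0.412, 1.40 and 0.170 in TM4SF1-high, 0.395, 1.31 and 0.0804 in DLK2-high PDK4-high and 0.0860, 0.391 and 0.0357 in marker-low cells. Its cows overlapped widely between states, since cow 2 held several times the level of the others. By single cluster, *FOSB* and *MAFF* were highest in a DLK2-high PDK4-high cluster (means 4.36 and 0.908) in 3 of 3 cows. A TM4SF1-high cluster came second by mean (3.76 and 0.680).

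The JUN-type genes were led by *JUN*, the most abundant of the 10. It stood at 46.3, 65.2 and 17.1 UMIs per 10000 in DLK2-high PDK4-high cells, 35.2, 55.1 and 23.4 in TM4SF1-high cells, and 9.85, 19.7 and 4.30 in GJA1-high cells. The TM4SF1-high values were all above the GJA1-high values. *JUNB*, often an antagonist of JUN in proliferation, stood at 16.8, 19.9 and 4.89 in DLK2-high PDK4-high, 10.8, 14.5 and 5.35 in TM4SF1-high and 1.59, 3.73 and 1.15 in GJA1-high cells. *JUND* had the flattest profile of the 3, at 8.62, 9.67 and 2.88 in DLK2-high PDK4-high, 5.68, 7.70 and 2.91 in TM4SF1-high and 2.28, 3.49 and 1.08 in GJA1-high cells.

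*ATF3* and *EGR1*, the stress-induced factor and the zinc finger factor, varied widely between cows, as did *MAFF* (a 16.5-fold range over all cells). *ATF3* stood at 9.78, 8.51 and 0.665 UMIs per 10000 in DLK2-high PDK4-high, 8.12, 7.96 and 1.15 in TM4SF1-high and 1.04, 2.65 and 0.215 in GJA1-high cells. *EGR1* stood at 9.44, 12.5 and 1.55, at 7.90, 13.3 and 2.28, and at 1.33, 3.73 and 0.311 in the same states. For both genes, the high states of cow 3 lay below the GJA1-high value of cow 2, so the groups overlapped although each cow on its own showed the rise.

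*FOSL2*, a long-lived FOS-type factor, departed from that order. It stood at 0.243, 0.137 and 0.146 UMIs per 10000 in DLK2-high PDK4-high cells, 0.195, 0.0708 and 0.106 in DLK2-high PDK4-low cells, 0.165, 0.0817 and 0.0890 in TM4SF1-high cells and 0.124, 0.0705 and 0.0757 in marker-low cells. Its highest states were the 2 DLK2-high ones by mean, and GJA1-high cells were lowest at 0.0731 ± 0.0294. DLK2-high PDK4-low and TM4SF1-high cells, next to each other in that order (0.124 ± 0.0639 and 0.112 ± 0.0461) kept their order in 2 of 3 cows.

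*FOSL1*, which in other epithelia marks wound edges and migrating cells, was rare and had its own pattern. It stood at 0.127, 0.0601 and 0.00610 UMIs per 10000 in DLK2-high PDK4-low cells and at 0.0412, 0.0704 and 0.00921 in TM4SF1-high cells. In DLK2-high PDK4-high cells it was at 0.0214, 0.0292 and 0.00116. These levels rest on few molecules: 28, 68 and 3 UMIs in DLK2-high PDK4-low, 18, 150 and 6 in TM4SF1-high, and 15, 51 and 2 in DLK2-high PDK4-high cells of cows 1, 2 and 3. Of the 99 UMIs in DLK2-high PDK4-low cells, 94 lay in 1 of its 2 clusters.

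At the finer level of the 17 clusters, 9 genes were highest in the same DLK2-high PDK4-high cluster (number 0), and 7 of these had a GJA1-high cluster as their lowest. For *FOS*, *FOSB*, *JUN*, *JUND* and *ATF3* that lowest was cluster 16. It held 292 cells with a median of 3182.5 UMIs and a median mitochondrial share of 0.356%. The ratios of *FOS*, *JUND* and *ATF3* given here thus have cluster 16 as their lower term. *FOSL1* was highest in a DLK2-high PDK4-low cluster (number 12), at 0.104 ± 0.0914. Cluster 12 also held *TM4SF1* at 1.43, just under the TM4SF1-high line. The ratio of highest to lowest cluster mean was 3.75 for *FOSL2*, 5.07 for *JUND*, 8.68 for *FOS*, 10.4 for *JUNB* and for *ATF3*, and 10.6 for *MAFF*. The ratio of 28.6 for *FOSL1* rests on a lowest cluster (number 7) with 5 UMIs, which is also DLK2-high PDK4-low.

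**Figure D2:**
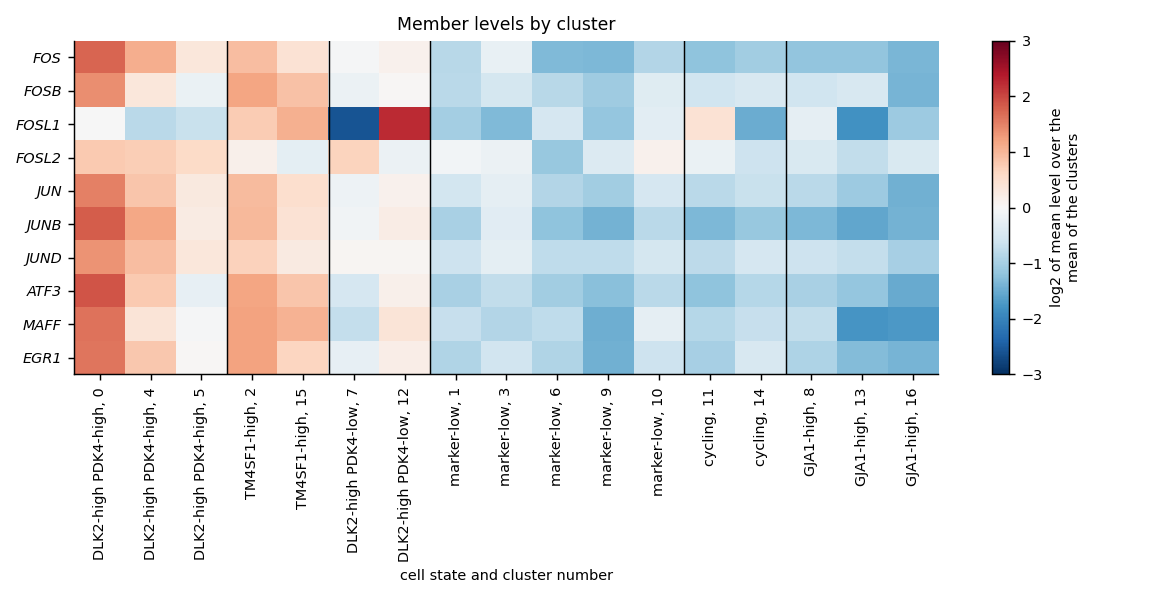
Level of the 10 genes in each of the 17 clusters, as log2 of the cluster mean over 3 cows relative to the gene's mean over clusters; clusters are ordered by state. Cluster 0 is the highest for 9 genes and cluster 12 for *FOSL1*.

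The first comparison set DLK2-high PDK4-high cells against marker-low cells, with edgeR's quasi-likelihood test on 18 sums of cow and state with cow as a block, calling a gene at an adjusted p below 0.05 and an absolute log2 fold change above 0.25. Of the 10 genes, 9 were higher and none lower; 19.8% of all 11317 genes tested were called higher and 21.0% lower. The log2 fold changes were 2.07 ± 0.25 (SE) for *ATF3*, 1.92 ± 0.20 for *JUNB*, 1.87 ± 0.19 for *EGR1*, 1.85 ± 0.21 for *FOS*, 1.47 ± 0.14 for *MAFF*, 1.41 ± 0.16 for *JUN*, 1.38 ± 0.22 for *FOSB*, 1.32 ± 0.12 for *JUND* and 0.72 ± 0.12 for *FOSL2*. The largest Benjamini-Hochberg adjusted p among them was 4.83e-05 by edgeR. All 9 were higher in 3 of 3 cows, but the cows' values did not overlap between states for 2 of the 10, *FOS* and *FOSL2*, where 20.6% of all genes were higher without overlap, so the members' share was no larger. *FOSL1* stood at 0.06 ± 0.36 (edgeR adjusted p = 0.916). DLK2-high PDK4-high cells were shallower (median 7435 UMIs against 11594) and had a lower mitochondrial share (8.44% against 13.2%). On unscaled levels the median of all genes was 0.22 higher (log2) in them, a shift that the scaling in edgeR took out. Among cells of 8000 to 12000 UMIs, the 9 stayed called and *FOSL1* was also called higher, at 1.84. The edgeR test without the cow term called none of the 10 (smallest adjusted p = 0.170, with 3 at an unadjusted p under 0.05), where 2.94% of all genes were called higher and 5.78% lower. Without the term edgeR called none in any other comparison either, with 3 at an unadjusted p under 0.05 in TM4SF1-high against GJA1-high cells (smallest adjusted p = 0.102) and 0 in the rest. Of all genes, between 0.150% (TM4SF1-high against marker-low) and 10.2% (TM4SF1-high against GJA1-high) were called in those comparisons.

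TM4SF1-high cells against marker-low cells gave 9 higher and none lower, where 6.85% of all genes were called higher and 6.07% lower. The log2 fold changes ran from 1.28 ± 0.12 for *JUND* to 2.48 ± 0.26 for *ATF3*, with *EGR1* at 2.27 ± 0.19, *FOSB* at 2.16 ± 0.22, *MAFF* at 2.06 ± 0.15, *JUNB* at 1.87 ± 0.20, *FOS* at 1.85 ± 0.21 and *JUN* at 1.64 ± 0.16. *FOSL1* was at 1.67 ± 0.33 (edgeR adjusted p = 0.00137), but not called without cow 2 (1.70, edgeR adjusted p = 0.0710), which held most of its UMIs. *FOSL2*, at 0.31 ± 0.13 (edgeR adjusted p = 0.140), was the one not called, although it was higher in 3 of 3 cows. The cows' values did not overlap for *FOS* alone, where 4.00% of all genes were higher without overlap. When states were set by UMIs in single cells (thinned once at random) instead of by clusters, 4 were called higher, where 1.29% of all genes were, and *FOS* (0.53), *JUN* (0.53), *JUNB* (0.48), *JUND* (0.36) and *EGR1* (0.76) were no longer called.

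GJA1-high cells against marker-low cells gave none of the 10 in either direction by edgeR, where 13.6% of all genes were called higher and 13.6% lower. One, *MAFF*, had an unadjusted p under 0.05, and DESeq2 called none. The values ran from -0.40 ± 0.20 for *JUNB* to 0.25 ± 0.22 for *FOSB*. This state held a cluster of 292 cells with a median mitochondrial share of 0.356%. The result depended on which cells were taken and on how the state was drawn. Among cells of 8000 to 12000 UMIs, *MAFF* (-1.61), *FOS* (-1.02), *JUNB* (-0.92), *JUN* (-0.87) and *EGR1* (-0.63) were called lower, where 5.78% of all genes were, and without cow 3 *JUNB* was (-0.68). That range kept 41, 41 and 287 GJA1-high cells of cows 1, 2 and 3, out of 481, 636 and 1066, from a state with a median of 14408 UMIs. The mitochondrial share of 8 to 14% used below kept 13, 328 and 474. With states set in single cells, 6 were called lower, *MAFF* (-1.02) the most, where 17.6% of all genes were. With a threshold of 2 times the mean for a high cluster, 5 were called lower, where 17.6% of all genes were. That threshold moved both DLK2-high PDK4-low clusters and the larger TM4SF1-high cluster into the marker-low state. With no filter on low counts, 4 were called lower (-0.30 to -0.44), where 10.2% of all genes were.

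The 2 DLK2-high states, which differ in *PDK4*, were compared next. Of the 10 genes, 9 were higher in DLK2-high PDK4-high cells and 1 lower, where 5.76% of all genes were called higher and 8.38% lower. The higher genes ran from 0.53 ± 0.15 for *FOSL2* (edgeR adjusted p = 0.0170) to 1.36 ± 0.26 for *ATF3*, with *FOS* at 1.18 ± 0.21, *JUNB* at 1.16 ± 0.20 and *JUN* at 0.97 ± 0.16. Each was higher in 3 of 3 cows. The rise was not shared by every cluster. By mean, DLK2-high PDK4-high cluster 5 lay below cluster 12 of the other state for *ATF3* (2.27 against 2.97) and *EGR1* (3.80 against 4.23). The same held for *FOSB* (1.44 against 1.69) and *MAFF* (0.288 against 0.381). *FOS*, *FOSL2*, *JUN*, *JUNB* and *JUND* were higher in cluster 5, *JUNB* barely so (6.68 against 6.58). Cluster 7, with 1232 of the 1995 DLK2-high PDK4-low cells, held *PDK4* at 1.83, above the mean over clusters of 1.42. *FOSL1* went the other way, at -1.74 ± 0.37 (edgeR adjusted p = 0.00274), and was lower in 3 of 3 cows. The DLK2-high PDK4-low state held both its highest cluster (number 12, 0.104 ± 0.0914) and its lowest (number 7, 0.00363 ± 0.00368, with 1232 cells). Cluster 7 lay below the 3 DLK2-high PDK4-high clusters by mean (0.0216, 0.0124 and 0.0138). The higher *FOSL1* level of the DLK2-high PDK4-low state thus came from cluster 12. That cluster held *TM4SF1* at 1.43, just under the TM4SF1-high line of 1.52, whereas cluster 7 held 0.242. The second highest *FOSL1* mean was in TM4SF1-high cluster 15 (0.0462 ± 0.0496). GJA1-high clusters 8 and 16 had similar *TM4SF1* levels (1.48 and 1.44) but lower *FOSL1* means (0.0181 and 0.0103). The part of *TM4SF1* in the *FOSL1* level was not tested. With states set in single cells *FOSL1* stood at 0.35, not called, nor was it called among cells of 8000 to 12000 UMIs (-1.12) or with the listed genes kept for clustering (-1.12). With the threshold of 2, the DLK2-high PDK4-low state was another cluster of 1490 cells, which shares no cells with the state described here, and *FOSL1* stood at 0.32 and *FOSL2* at 0.23 against it, neither called. *FOSL2* was not called without cow 1 (0.62) or cow 2 (0.36), with states set in single cells (0.26) or among cells of 8000 to 12000 UMIs (0.39). *FOSB*, at 0.92 ± 0.23, was not without cow 1 (0.88) or with states set in single cells (0.76).

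TM4SF1-high cells against GJA1-high cells gave all 10 higher, where 20.0% of all genes were called higher and 18.7% lower. The log2 fold changes ran from 0.57 ± 0.15 for *FOSL2* (edgeR adjusted p = 0.00433) to 2.41 ± 0.19 for *EGR1*, with *MAFF* at 2.40 ± 0.16, *ATF3* at 2.33 ± 0.26, *JUNB* at 2.28 ± 0.20, *FOS* at 2.11 ± 0.21 and *FOSL1* at 1.53 ± 0.37. All 10 were higher in 3 of 3 cows, and for *FOS*, *JUN* and *JUNB* the cows' values did not overlap, where 13.4% of all genes were higher without overlap. *FOSL2* was not called without cow 2 (0.45), with the threshold of 2, which left 534 TM4SF1-high cells (0.13), at a clustering resolution of 1.0 (0.38), with states set in single cells (0.06) or among cells of 8000 to 12000 UMIs (0.80). *FOSL1* was not called among the latter cells (1.48) or among cells with a mitochondrial share of 8 to 14% (1.15).

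The 2 states with the highest levels were compared after the data had been seen. The levels by state given above were unscaled. On them the median log2 difference of all genes was -0.22 (TM4SF1-high against DLK2-high PDK4-high), a shift that the scaling in edgeR took out. TM4SF1-high cells exceeded DLK2-high PDK4-high cells in 3 genes and were lower in 1, where 11.0% of all genes were called higher and 6.12% lower. The 3 were *FOSL1* (1.61 ± 0.35), *FOSB* (0.79 ± 0.22) and *MAFF* (0.59 ± 0.14), each higher in 3 of 3 cows, and *FOSL2* was lower at -0.40 ± 0.13. *FOS* (-0.01 ± 0.20), *JUNB* (-0.05 ± 0.19) and *JUND* (-0.03 ± 0.12) were close to 0, but with states set in single cells *FOS* (-0.71), *JUNB* (-0.78) and *JUND* (-0.59) were called lower, as were *JUNB* (-0.82) and *JUND* (-0.64) with the threshold of 2 and *JUND* (-0.46) with the listed genes kept for clustering. Each of the 4 calls was lost when a cow was left out: *FOSL1* without cow 2 (1.68), *FOSB* (0.51) and *MAFF* (0.36) without cow 3, and *FOSL2* without any of the 3 (-0.48, -0.39 and -0.38 without cows 1, 2 and 3).

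**Figure D3:**
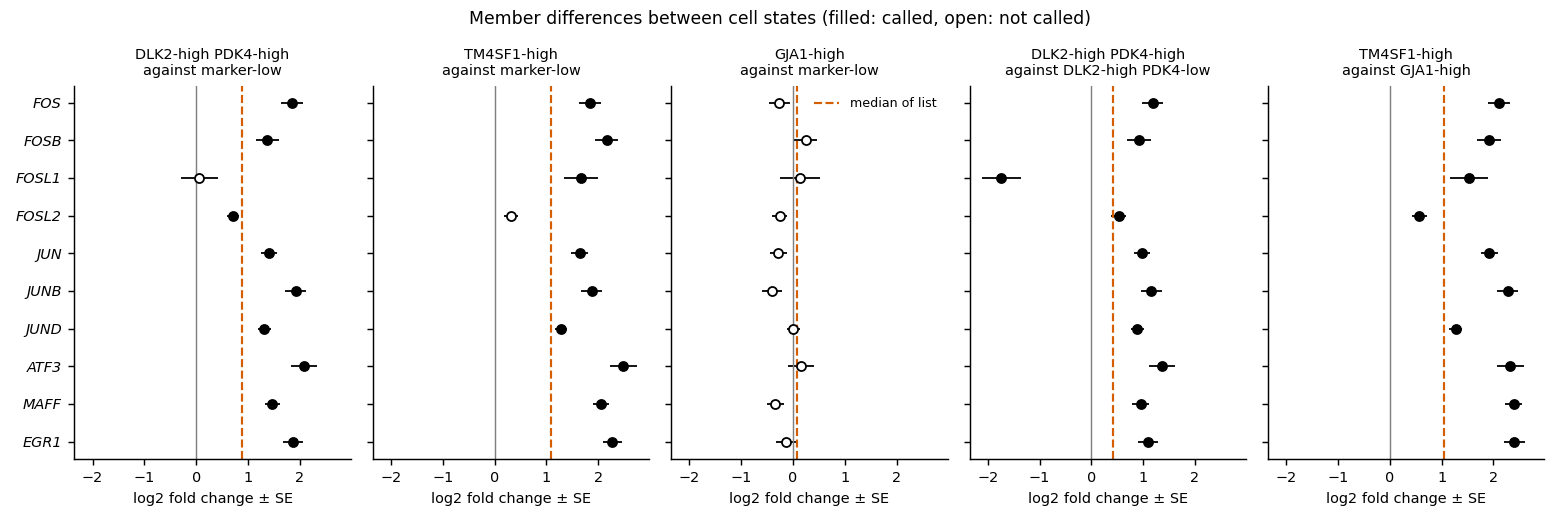
Log2 fold change of each gene in 5 comparisons between states, with bars of 1 SE; filled points were called by edgeR with cow as a block (adjusted p below 0.05, absolute log2 fold change above 0.25) and open points were not, and the dashed line is the median of the list of 34 measured early and stress genes. *FOSL1* at -1.74 between the DLK2-high states is the one called point below 0.

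To ask which genes departed from a response shared with other early and stress genes, each gene was next measured against the summed counts of a list of 36 early and stress genes (34 measured, none of them among the 10), in the same edgeR test. The list holds genes reported to respond to tissue dissociation, and it does not separate dissociation from stress in the animal. In DLK2-high PDK4-high against marker-low cells, 26 of its 34 genes rose and 2 fell, where 19.8% of all genes rose and 21.0% fell. Its median log2 fold change was 0.87 beside 0.02 over all genes. The sum of the list was led by heat shock genes, *HSPB1* giving 15.8% and *HSPA1A* 10.6% of it. Of the 7 heat shock genes none rose and 2 fell, the latter near the share of all genes. A gene that changed as much as this sum would stand at 0. Relative to the sum the median of all genes moved from 0.02 to -0.41, so the sum rose less than the median list gene did. A gene that rose like that median list gene would therefore stand above 0. A call above the list is thus a call above its sum.

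Against the summed list, 8 of the 10 rose more than the sum did in DLK2-high PDK4-high cells and none less, where 6.47% of all genes were above and 51.0% below. *ATF3* stood 1.62 ± 0.24 above the list, *JUNB* 1.47 ± 0.18, *EGR1* 1.43 ± 0.19 and *FOS* 1.41 ± 0.22, and *JUND* was the least of the 8 at 0.87 ± 0.14. *FOSL2* (0.28 ± 0.15, edgeR adjusted p = 0.106) and *FOSL1* (-0.44 ± 0.35, edgeR adjusted p = 0.300) were not called. With the heat shock genes left out of the list, both were called below it, *FOSL2* at -0.35, as were 84.9% of all genes, and *FOSB* (0.31) and *JUND* (0.25) were no longer called above it.

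In TM4SF1-high against marker-low cells, 9 were above the list and 1 below, where 1.56% of all genes were above and 74.9% below. *ATF3* (1.79 ± 0.24), *EGR1* (1.57 ± 0.19), *FOSB* (1.47 ± 0.22) and *MAFF* (1.39 ± 0.15) stood highest. *FOSL2* was below at -0.39 ± 0.16 (edgeR adjusted p = 0.0318), and was not called without cow 1 (-0.38) or cow 2 (-0.36). *FOSL1* (0.96 ± 0.33) was not called without cow 2 (0.99), nor without the heat shock genes (0.48), which also took *JUND* to 0.02. With the single-cell definition of states, *FOS* (0.17), *JUN* (0.17), *JUNB* (0.12) and *EGR1* (0.41) were not called, and *JUND* was level with the list.

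In GJA1-high against marker-low cells, *JUNB* (-0.56 ± 0.18) and *MAFF* (-0.50 ± 0.17) were below the list, where 18.0% of all genes were, and none was above, where 6.25% of all genes were. Both calls were lost without cow 1 (-0.36 and -0.44), *JUNB* also without cow 2 (-0.49) and *MAFF* without cow 3 (-0.36). Between the DLK2-high states, 8 were above and *FOSL1* below at -2.08 ± 0.37, where 1.39% of all genes were above and 21.7% below. Without cow 2 the calls above were 4, with *FOSB* (0.78), *JUN* (0.75), *JUND* (0.68) and *MAFF* (0.67) lost, and among cells of 8000 to 12000 UMIs *ATF3* alone stayed. *FOSB* was also lost without cow 1 (0.67), without cow 3 (0.48), with states set in single cells (0.46) and without the heat shock genes (0.39). *FOS* (0.94) and *MAFF* (0.58) were lost without cow 1, and *FOS* (0.59), *JUN* (0.50) and *JUND* (0.47) among cells with a mitochondrial share of 8 to 14%. *FOSL1* was lost with states set in single cells (0.04), with the threshold of 2 (-0.36) and among cells of 8000 to 12000 UMIs (-1.55). In TM4SF1-high against GJA1-high cells, 9 were above the list and *FOSL2* was level with it at 0.02 ± 0.18, where 6.35% of all genes were above and 53.0% below. *FOSL1*, at 0.95 ± 0.37, was called in 5 of 15 alternatives, with values from 0.34 (without the heat shock genes) to 1.43 (without cow 2) over all 15, and was not called without cow 1 (0.80) or cow 2. *JUND* was not called without the heat shock genes (0.04) or with each gene of the list weighing the same (0.27). In TM4SF1-high against DLK2-high PDK4-high cells, *FOSL1* was above at 1.40 ± 0.35 and *FOSL2* below at -0.67 ± 0.16, where 3.28% of all genes were above and 20.6% below. Both were lost without cow 2 (1.49 and -0.67).

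**Figure D4:**
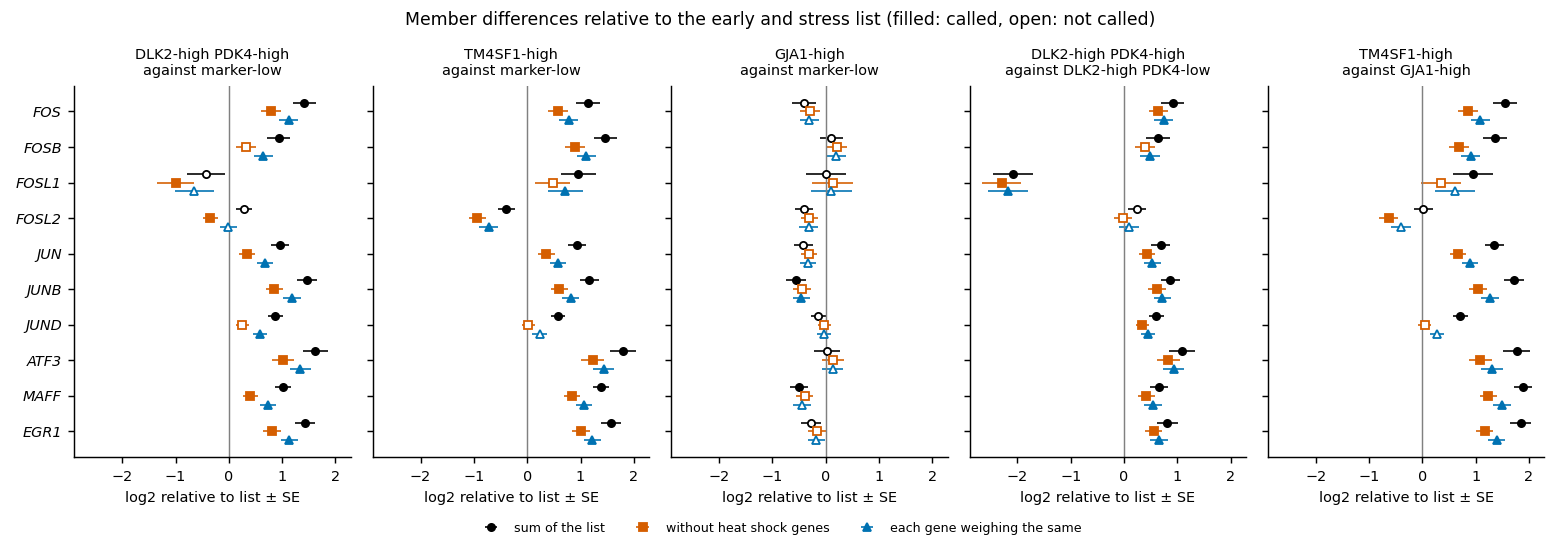
Log2 fold change of each gene relative to the summed early and stress list in 5 comparisons, with bars of 1 SE; 0 means a change equal to that of the list, and filled points were called by edgeR with cow as a block. Circles use the summed list, squares the list without its heat shock genes and triangles a mean in which each gene of the list weighs the same. With the summed list the 8 genes other than *FOSL1* and *FOSL2* were called above 0 in 4 comparisons, and *FOSL2* was called in 1, at -0.39.

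The share of single cells with a transcript was compared at equal depth. Each cell was thinned to 3000 UMIs, and 491 shallower cells were left out. At least 1 UMI of *JUN* was then found in 91.2% ± 11.2 (SD, n = 3 cows) of DLK2-high PDK4-high cells, 99.2% ± 1.30 of TM4SF1-high cells and 68.9% ± 22.0 of GJA1-high cells. *FOS* was found in 74.2% ± 21.5, 77.2% ± 16.9 and 31.2% ± 17.0 of them. Before thinning the shares of *FOS* were 84.3%, 94.5% and 58.9%. *FOSL1* was found in at most 1.16% of any state and *FOSL2* in 1.81% to 5.25%. No cell type that lacks these genes was in the data, so the share that free RNA in the droplets gives could not be measured.

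Per thinned cell, 5.73, 6.23 and 3.04 of the 10 genes had a UMI on average in DLK2-high PDK4-high cells of cows 1, 2 and 3, 6.06, 6.46 and 3.87 in TM4SF1-high cells and 2.58, 3.81 and 1.25 in GJA1-high cells. Cells with 7 or more of them made up 32.1%, 32.8% and 4.06% of these states on average over cows. In cows 1, 2 and 3 the share was 45.0%, 47.5% and 3.96% in DLK2-high PDK4-high cells, 42.8%, 51.8% and 3.75% in TM4SF1-high cells and 0.719%, 11.1% and 0.399% in GJA1-high cells, so the GJA1-high mean came mostly from cow 2. Cells with none made up 4.43% of DLK2-high PDK4-high and 0.300% of TM4SF1-high cells, and 16.5% of GJA1-high cells.

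Within a state of 1 cow, the log-normalized levels of *FOS*, *FOSB*, *JUN*, *JUNB*, *JUND*, *ATF3* and *EGR1* varied together from cell to cell. Over the 18 combinations of cow and state, the median Pearson r of their 21 pairs lay between 0.37 (*JUND* with *ATF3*) and 0.61 (*JUNB* with *EGR1*). *MAFF* correlated with each of these at 0.12 to 0.20, and the 17 pairs with *FOSL1* or *FOSL2* lay between -0.01 and 0.06. These values are descriptions: cells share their library and depth, and *FOSL1*, *FOSL2* and *MAFF* are at 0 in most cells. *MAFF* had a UMI in 4104 of 20728 cells. Over the 51 sums of cow and cluster, centred within cow, the 8 genes other than *FOSL1* and *FOSL2* had r of 0.84 to 0.97 among themselves. *FOSL2* reached at most 0.62 with any of the others, and *FOSL1* at most 0.42. With *PDK4*, r was 0.77 to 0.92 for these 8, 0.67 for *FOSL2* and 0.13 for *FOSL1*. With *DLK2* it was 0.31 to 0.60 for the 8, 0.64 for *FOSL2* and 0.07 for *FOSL1*, and with *TM4SF1* 0.08 to 0.35, -0.32 and 0.46. With *GJA1* it was -0.40 to -0.67 for the 8, -0.57 for *FOSL2* and -0.10 for *FOSL1*, and with the summed early and stress list 0.74 to 0.83, 0.39 and 0.45.

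The share of each gene within its family was also set out by state. Since each UMI stands for 1 molecule, shares within a family can be read without division by length. *FOS* gave 75.9%, 70.3% and 80.1% of FOS-type UMIs in DLK2-high PDK4-high cells of cows 1, 2 and 3, and 62.5%, 54.6% and 64.3% in GJA1-high cells, so it was lower in GJA1-high cells in each cow. *FOSB* gave 22.8%, 28.3% and 16.4% in the first state and 34.0%, 43.7% and 27.9% in the second. Among JUN-type UMIs, *JUN* held 67.4% to 72.3% as a mean in every state. *JUNB* gave 21.4% ± 1.94 in DLK2-high PDK4-high cells and 14.4% ± 3.04 in GJA1-high cells, with no overlap between cows. *JUND* gave 11.3% ± 0.943 and 15.4% ± 2.07. These shares were not tested.

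**Figure D5:**
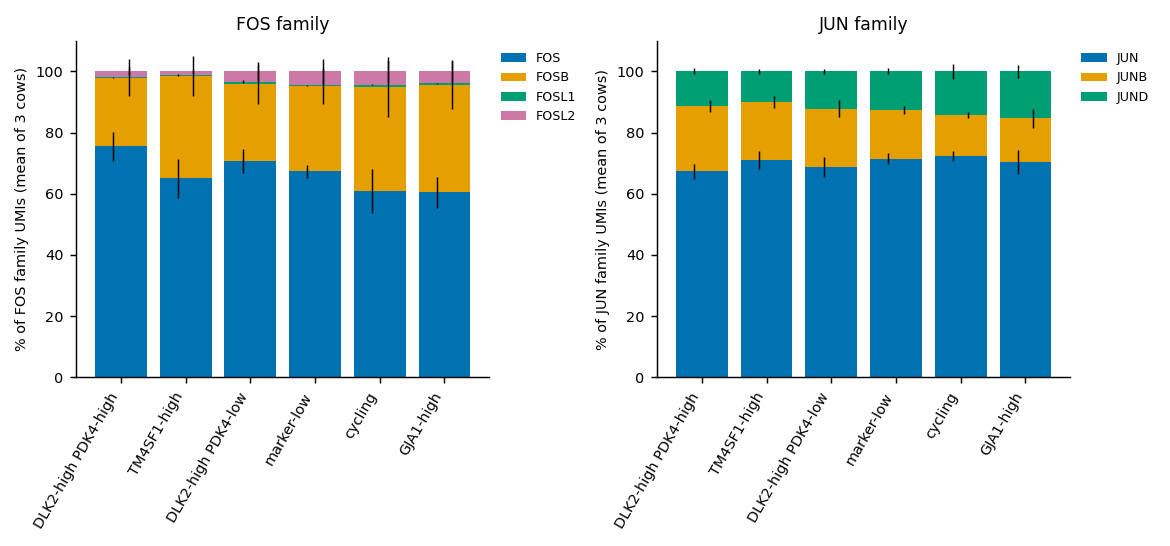
Share of each gene in the UMIs of the FOS-type family (*FOS*, *FOSB*, *FOSL1*, *FOSL2*) and the JUN-type family (*JUN*, *JUNB*, *JUND*) by state, as stacked means of 3 cows with bars of 1 SD. *FOS* has its highest share in DLK2-high PDK4-high cells, and the mean share of *JUN* lies between 67.4% and 72.3% in every state.

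Other genes of the pathway were counted in the comparison of DLK2-high PDK4-high with marker-low cells. Of the feedback genes that these kinases and factors induce, 11 of 11 tested rose (median log2 fold change 1.27, all genes 0.02): *SPRY1*, an inhibitor of growth factor signalling, by 2.25, *ZFP36*, which destabilises early transcripts, by 1.95, and *DUSP1*, a MAP kinase phosphatase, by 1.15. *ZFP36* and *DUSP1* are also in the early and stress list, so the counts of these lists overlap. Of the kinases and factors upstream, 5 of 17 rose and 2 fell (median 0.28), shares near those of all genes (19.8% higher and 21.0% lower), among the risen *MRTFB* (0.83), *MAP3K1* (0.60) and *MAP2K1* (0.28). Of the other basic leucine zipper factors that can partner with these proteins, 9 of 15 rose and none fell (median 0.43), with *DDIT3* at 1.03, *ATF4* at 0.43 and *NFE2L2* at 0.37. In the EGR family and its NAB corepressors, 3 of 4 rose and 1 fell: *EGR3* was at 1.69, *NAB2* at 0.61 and *NAB1* at -0.73. Of the AP-1 target genes, 5 of 16 rose and none fell (median 0.26), against the same 19.8% and 21.0%, with *ITGA2* at 1.30, *HBEGF* at 0.86 and *EZR* at 0.31. Among the early and stress genes, *IER3* rose by 1.02, while *HSPA8* fell by 0.81 on the log2 scale.

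In TM4SF1-high against marker-low cells, where 6.85% of all genes were called higher, the feedback list gave 10 of 11 higher (median 1.12), with *ZFP36* at 2.24 and *DUSP1* at 1.66, and the AP-1 targets 7 of 16 (median 0.49), with *HBEGF*, a growth factor shed in wounds, at 1.77. The upstream list gave 2 of 17, near that share, and the partners 4 of 15. In GJA1-high cells, where 13.6% of all genes were called in each direction, 4 of the 11 feedback genes were lower and 1 higher (median -0.51), *SPRY1* standing at -0.93 and *DUSP1* at 0.83. Of the AP-1 targets in that comparison, 5 of 16 were higher and 3 lower (median 0.11). Between the DLK2-high states, where 5.76% of all genes were called higher and 8.38% lower, the feedback list gave 4 of 11 higher and the AP-1 targets 1 of 16 higher and 4 lower.

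The genes whose pattern over the 51 sums was most like each of the 10 were found among 10304 genes. *ZFP36* was among the closest 3 of 6 of them, at r = 0.96 for *JUNB* and *EGR1* and 0.94 for *FOS*, and *GADD45A*, a growth arrest gene, was the closest to *FOS* (0.94) and *JUN* (0.95). *FOSB* was closest to *PPP1R15A* (0.95), which restarts translation after stress, and *ATF3* to the zinc finger gene *KLF6* (0.95). *MAFF* was closest to *ZFP36* (0.94) and *JUND* to *ZFP36* (0.95). The closest gene to *FOSL2* was *IP6K2* (0.83), then *IRX3* (0.81) and *FBXO32* (0.80). *FOSL1* was closest to *TNFRSF12A* (0.78), then *MAP2K3* (0.72) and *EREG* (0.70), a growth factor of the EGF family. *ZFP36*, *GADD45A*, *PPP1R15A* and *KLF6* are themselves genes of the early and stress list. These values are descriptions over sums that share libraries and depth.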

How the data were processed

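Per the labels and the study's methods, the authors aligned droplet reads of 3 libraries, 1 per cow, and counted UMIs per gene and cell with Cell Ranger 3.1.0, then removed cells by gene number, UMIs and mitochondrial share, doublets and non-epithelial cells. The deposited matrix holds these UMI counts. The deposited atlas table holds the authors' natural log of 1 plus the count scaled to 10000 per cell, which matched the counts within 1e-06. It was read for gene names and log-normalized correlations were computed from the counts. The libraries held 38912809, 94856658 and 104189434 UMIs in cows 1, 2 and 3, and precision is set by 3 cows. The cow was taken from the number at the end of each barcode; 35 barcode sequences occurred in more than 1 library (70 cells). No deposited annotation of cells was used.

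Cells were clustered with Seurat 5.3.0 (2000 variable genes, 30 components, resolution 1.6, Harmony-type correction for cow) with 48 listed genes kept out; 9 of the 10 members would otherwise have been variable genes. Counts were summed per cow and state (at least 10 cells), given as UMIs per 10000, and tested with edgeR 4.0.16 (TMM, filterByExpr, quasi-likelihood test, Benjamini-Hochberg adjustment) with the cow as a block. In the second test the log of the summed early and stress list was the offset. States of the same cow come from the same animal, which is the pairing: their deviations correlated at 0.70 to 0.72 within a cow and at -0.38 between cows. The test was checked on simulated data with 200 changed, well-counted genes among 11317 (DLK2-high PDK4-high against marker-low), where it recovered 100% at log2 fold changes of 1 and of 2 and called 0.0833% of unchanged genes. The simulated sums held no difference between cows, so they do not check the test where cows differ as they do here. *FOSL1* had fewer counts than the genes changed in them.

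The members and lists were chosen with earlier results of these data known. Named beside the 10 members and the state genes were the 3 genes most like each member by Pearson r, and from each list the 3 with the highest mean CPM among those called in the first comparison. One gene that this rule named is not reported here. Alternatives were DESeq2 1.42.0, no low-count filter, other state definitions, leaving out each cow, matched depth or mitochondrial share, and other forms of the list. Sequences were not analysed here.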

Additional observations from a re-analysis of the deposited data

How the results depend on the processing

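Every member called in the report was called with the cow as a block. With no replicate block, 0 members were called higher, lower, above or below the early and stress list in each of the 6 comparisons (edgeR). Of all genes, 0.150% to 10.2% were then called between states and 0.0442% to 2.54% relative to the list. Of 840 fold changes of single members between states under alternatives, 675 kept their direction and side of the threshold, 84 lost the call, 31 gained one, 6 reversed and 44 that were not called moved. The reversed values were *JUND* in GJA1-high against marker-low cells at -0.42 with single-cell gates (set on 1 random thinning), *FOSL1* between the DLK2-high states at 0.32 with a threshold of 2 times the mean (a DLK2-high PDK4-low state made of other cells) and 0.35 with gates, and in TM4SF1-high against DLK2-high PDK4-high cells *MAFF* at -0.044 with that threshold and -0.11 with gates and *JUN* at -0.51 with gates. Of 900 values relative to the list, 716 kept their direction and side, 109 lost the call, 29 gained one, 6 reversed and 40 that were not called moved. These reversals were *FOSL2* without the heat shock genes (-0.35 in DLK2-high PDK4-high against marker-low and -0.63 in TM4SF1-high against GJA1-high cells) and between the DLK2-high states with the threshold of 2 (-0.45), and with gates *JUND* in TM4SF1-high (-0.0032) and *ATF3* in GJA1-high against marker-low cells (-0.63) and *FOSL1* between the DLK2-high states (0.036). Apart from the cells that the threshold of 2 moved between states, the causes were not tested.

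Counts moved by more than 1.5 times, or to or from 0, in these cases, and by less in others. Members called lower in GJA1-high against marker-low cells, 0 in the report, were 4 with no filter on low counts, 5 with a threshold of 2 times the mean, 6 with gates, 5 among cells of 8000 to 12000 UMIs and 0 to 1 without 1 cow (10.2%, 17.6%, 17.6% and 5.78% of all genes in the first 4 settings). Members called higher in TM4SF1-high against marker-low cells were 4 with gates (1.29% of all genes). Members above or below the list in TM4SF1-high against marker-low cells were 5 with a threshold of 2 times the mean and 5 with gates (50.9% and 46.2% of all genes, 76.5% in the report's setting). In GJA1-high against marker-low cells they were 4 with no filter on low counts, 5 with the threshold of 2, 7 with gates, 4 among cells of 8000 to 12000 UMIs, 1 among cells with a mitochondrial share of 8 to 14%, 1 with the mean log of the list, 0 at resolution 1.0, 0 with list genes kept as variable genes, 0 without the heat shock genes and 0 to 2 without 1 cow, while between 5.77% and 30.3% of all genes were in these settings and 24.2% in the report's. Between the DLK2-high states they were 5 to 8 without 1 cow and 1 among cells of 8000 to 12000 UMIs (1.64% of all genes, 23.0% in the report's setting). In TM4SF1-high against DLK2-high PDK4-high cells, members called higher were 5 with no filter, 1 with the threshold of 2, 1 at resolution 1.0, 1 with list genes kept, 0 with gates and 1 to 3 without 1 cow, and members called lower were 3 with the threshold of 2, 2 with list genes kept, 5 with gates, 0 at either matched depth or mitochondrial share, 0 by DESeq2 and 0 without any 1 cow. Of all genes, 6.62% were called higher with no filter, and 11.0% higher and 6.12% lower in the report's setting.

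Depth limits *FOSL1* most, since 514 UMIs over all cells leave single digits in several sums of cow 3. The states were drawn from the same cells, 3 cows measure the spread, and transcripts induced by dissociation cannot be told apart from those in the tissue.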
